A study of Rattus norvegicus with 9 samples.

Results

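Of the 114601 loci counted in rat whole brain, 14845 were unannotated loci whose assembled transcripts all lay within the intron of a known gene, and 1228 of these, the intronic loci described here, reached a mean CPM (count scaled to the library total) of at least 1 over the 9 libraries. They were chosen by 2 criteria. Every transcript of the locus carried the class code that marks a transcript contained in a reference intron, on either strand, and the locus lay outside 38 to 40 Mb of chromosome 12, the region around the deleted gene, where 35 further loci of this kind were left out, 3 of them at or above the minimum. The CPM minimum used the mean over all libraries and no genotype. The loci just inside it were MSTRG.53815 in Pdzd2 (1 CPM) and MSTRG.114485 in Atp2b3 (1.0003 CPM), and MSTRG.66336 in Rapgef4 (0.9977 CPM) lay just outside it.

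Introns are transcribed with the rest of a gene and are cut out of the nascent RNA, mostly while transcription is still under way. RNA from introns is seen in libraries made by removing ribosomal RNA rather than by selecting poly(A) tails. An assembled intronic fragment can be a piece of unspliced host transcript, a retained intron, an unannotated exon or a separate non-coding RNA, and its strand, length, exons and level relative to the host are the measurements that bear on these forms. Genes for neuronal adhesion molecules and channels have some of the longest introns in the genome.

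RNA was measured in 9 male rats that had not been exposed to alcohol, with 1 whole-brain library from each. The groups were 3 wild-type Wistar rats from a commercial supplier and 2 sets of 3 rats from the line Crl:WI-Lrapem1Geh, which carries a 618 bp CRISPR/Cas9 deletion in Lrap, a long non-coding RNA gene, on either 1 chromosome (heterozygous) or both (homozygous). All were untreated, and the sources used here state no age. Wild types came from the supplier and mutants from the edited line, with no shared litters named, so the effects of line and genotype cannot be told apart. Each p-value measures only the spread between these rats. Library totals ran from 27489383 to 46975919 expected counts. The Lrap locus averaged 0.353 ± 0.0651 TPM (a level also scaled by transcript length) in the wild types, 0.183 ± 0.0416 with 1 deleted copy and 0.117 ± 0.0153 with both deleted (SD, n = 3 each). In TPM homozygous rats did not overlap wild types (33% of the wild-type mean, exact permutation p = 0.1, the smallest that 3 against 3 allows). In CPM they did, at 4.04 ± 0.782 against 5.35 ± 0.764 (75.6%, exact permutation p = 0.2).

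The intronic loci fell into 2 unlike classes by strand. On the strand of the host gene lay 876 loci, 297 lay on the opposite strand, and for 55 the host strand was not found in the assembly. Same-strand loci were long, with a median exonic length of 6557 bp, and 19.9% of them had a single exon. Opposite-strand loci had a median of 803 bp, and 82.5% had a single exon. The share on the host strand was 74.7% of the loci with a known host strand, against 31.2% of the 13582 intronic loci that did not reach the CPM minimum, which had a median length of 343 bp. It was 69.5% at 1 to 2 CPM, 74.2% at 2 to 5 CPM, 81.0% at 5 to 10 CPM and 90.7% at 10 CPM or more. A long locus collects more reads at the same read density, so the CPM minimum itself favours long loci.

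**Figure D1:**
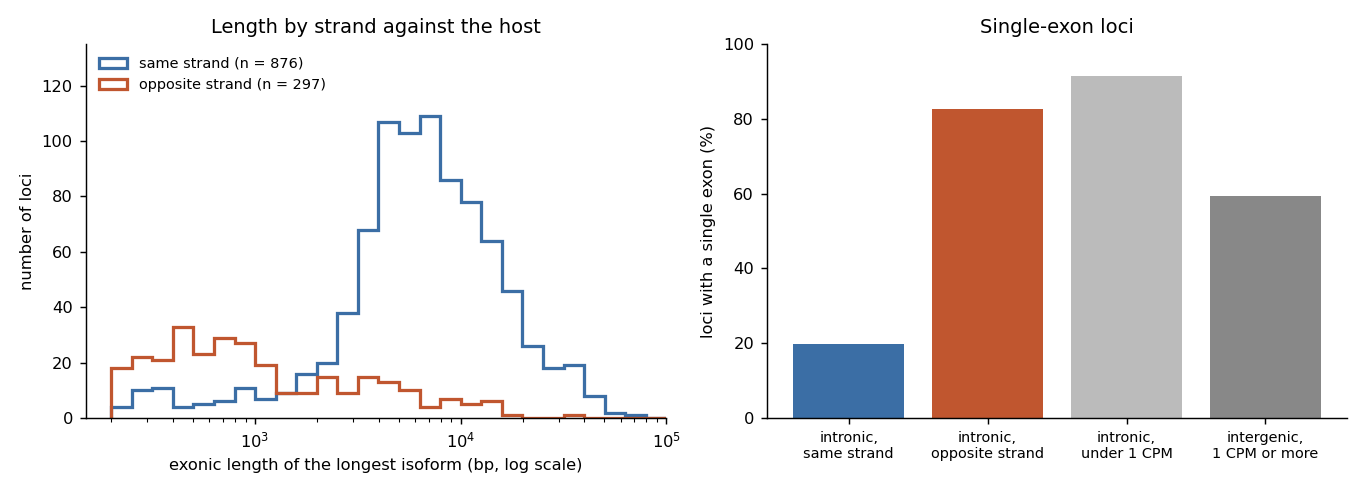
Left, number of intronic loci (y axis) by exonic length of the longest isoform in bp (x axis, log scale) for loci on the same and on the opposite strand as the host; right, percent of loci with a single exon in 4 sets. Same-strand loci centre on a median of 6557 bp and 19.9% have 1 exon, while opposite-strand loci centre on 803 bp and 82.5% have 1 exon.

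Per unit length the order of the 2 classes was the other way round. Median CPM was 2.58 for same-strand and 1.99 for opposite-strand loci, but the median TPM was 0.23 and 1.63. A short locus reaches the CPM minimum only at a high level per unit length. The rule of choice therefore itself favours this order and the ratios to the host given next. Among loci whose host locus was also tested, a same-strand locus reached a median of 7.21% of the TPM of its host (848 loci), and an opposite-strand locus 67.5% (277 loci). The host was exceeded by 46 same-strand and 115 opposite-strand loci. Across loci, the TPM of a locus and of its host had a Spearman rho of 0.21 on the same strand and -0.07 on the opposite strand, a description over loci that share libraries and hosts. Opposite-strand exons of other loci were overlapped by 105 intronic loci (8.55%). The libraries were made with a stranded kit, but the sources used here do not state whether counting used the strand, so reads of these 105 loci and their partners are uncertain. Without strand, unspliced reads of the host would also count towards any of the 297 opposite-strand loci, so their levels, their ratio to the host and their correlation with it carry the same doubt.

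Of the 1228 loci, 635 had 2 exons, 125 had 3 or more, and 1086 had 1 isoform. Exons covered a median of 99.6% of the span over all 1228 loci, single-exon loci included, and 98.95% over the same-strand loci, with a lower quartile of 94.49%. The locus with most exons was MSTRG.47798 (chr18:73408733-73439357, minus strand, 12 exons, 7782 bp), opposite to Pias2, a SUMO ligase gene. Next came MSTRG.105219 (chr9:16317635-16321572, 11 exons, 1762 bp), opposite to Gltscr1l, and MSTRG.36346 (chr15:67569200-67587561, 8 exons, 2999 bp), opposite to Pcdh17, a protocadherin gene. All 3 of the loci with most exons were on the opposite strand, although most loci of that class had a single exon.

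For 433 loci the reference host transcript itself was assembled, which placed them within 1 intron. Those introns had a median length of 47.7 kb, and the locus spanned a median of 10.7% of its intron. The first intron of the host held 45.9% of the 305 same-strand loci and 18.8% of the 128 opposite-strand loci. Same-strand loci lay a median of 11.8 kb from the upstream exon and 30.1 kb from the downstream exon, and 199 of 305 (65.2%) were nearer the upstream one. Of the 128 opposite-strand loci, 65 (50.8%) were nearer to that exon.

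The 1228 loci lay in 787 host genes, of which 574 held 1 locus and 213 held 2 or more. Hosts with 5 or more numbered 30 and held 207 loci. Pde4d, which encodes a cyclic AMP phosphodiesterase, held most, with 16 loci (chr2:40575213-41333543). Il1rapl1, an adhesion protein of the interleukin-1 receptor family at synapses, held 14 (chrX:55552808-56719365). Lrrtm4, a leucine-rich postsynaptic adhesion protein, held 12 (chr4:110726129-111397610). Nrxn3, a presynaptic neurexin, held 11 (chr6:112274188-113439833), and Anks1b, a scaffold protein of the postsynapse, held 10 (chr7:30745339-31674335). Nlgn1, a postsynaptic partner of neurexins, also held 10. All positions are those of the deposited rn6 assembly.

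Read density of same-strand loci tended to be higher towards the start of a host intron. Where 2 neighbouring loci on the host strand lay in the same intron, the upstream one had more CPM per kb of exon in 64 of 74 pairs (86.5%, 39 hosts), with a median ratio of 1.14. Along whole hosts the order was mixed. Of 22 hosts with at least 5 same-strand loci, density and distance downstream had a negative Spearman rho in 16, with a median of -0.38. In Il1rapl1 rho was -0.93, and density went from 0.825 CPM per kb at the first locus to 0.291 at the last, 967 kb further. In Lrrtm4 it was -0.64 (0.617 to 0.221 over 644 kb). Hosts with the opposite order included Anks1b (rho 0.72, density between 0.234 and 1.69) and Pde4d (rho 0.45, between 0.133 and 0.521). Loci of 1 host share its libraries and are not replicates, so these values carry no test.

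**Figure D2:**
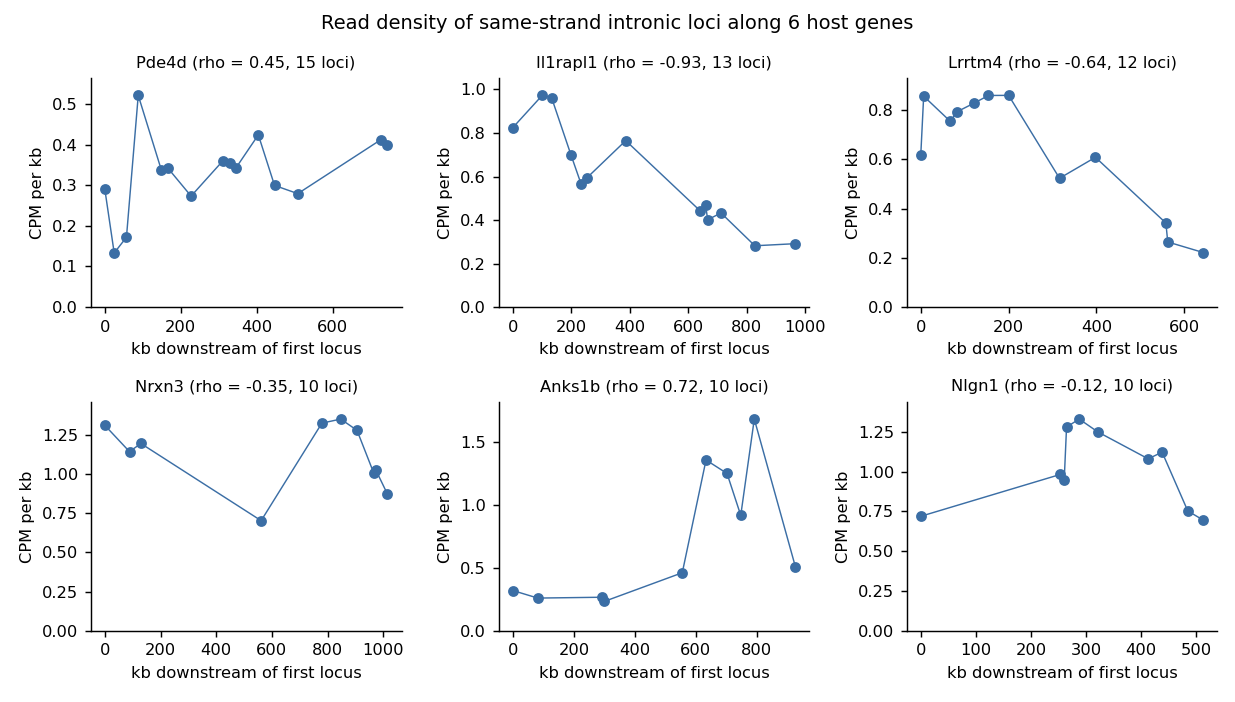
Mean CPM per kb of exon (y axis) of each same-strand intronic locus against its distance in kb downstream of the first such locus (x axis) in 6 host genes; points are loci. Density declines along Il1rapl1 (rho -0.93) and Lrrtm4 (-0.64), rises along Anks1b (0.72) and is mixed along Nrxn3 (-0.35).

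MSTRG.90858 in Nrxn3 (chr6:112274188-112323775, 49478 bp), with a mean of 64.9 CPM, was at 84.4, 89.0 and 34.2 CPM in the wild types, with TMM-scaled library sizes, the scale of all values per rat below. Heterozygous rats had 71.5, 70.2 and 43.5 CPM, and homozygous rats 50.7, 83.1 and 43.5. MSTRG.94348 in Syt1, the calcium sensor of synaptic vesicle release (chr7:50365248-50416425), was at 81.8, 116 and 36.6 CPM in wild types, 81.3, 40.3 and 40.7 in heterozygotes, and 57.3, 52.2 and 41.5 in homozygotes. In both loci wild-type rat 2 was the highest and wild-type rat 3 the lowest of all rats, so every mutant lay within the wild-type range. The loci in Anks1b (MSTRG.93972, 53.0 CPM), Nlgn1 (MSTRG.55353, 51.2 CPM), Dscaml1 (MSTRG.100540, 49.4 CPM), another adhesion gene, and a second one in Nrxn3 (MSTRG.90874, 49.0 CPM) were also among the same-strand loci of highest mean.

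MSTRG.112025, also among the most abundant, lay on the opposite strand. It is a single exon of 1265 bp opposite to Zfp449, a zinc-finger gene, at chrX:73399567-73400831, with a mean of 98.6 CPM and 45.5 TPM. It measured 77.3, 133 and 45.5 CPM in wild types, 117, 127 and 129 in heterozygotes, and 50.4, 56.1 and 147 in homozygotes. The rats varied widely within 2 genotypes, and the heterozygous rats lay inside the range of the others. Its host was at 0.62 TPM, and it overlapped exons of 1 locus on the other strand. Another short opposite-strand locus, MSTRG.21879 in Fgf12, a gene for an intracellular modulator of sodium channels, was 209 bp long (chr11:76099869-76100077) and reached 18.7 CPM and 154 TPM. TPM of so short a transcript depends strongly on the effective length used.

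The share of reads on intronic loci varied widely within genotypes. The 1228 loci took 0.736, 0.932 and 0.489% of all counts in wild types 1 to 3, 0.775, 0.606 and 0.394% in heterozygotes, and 0.409, 0.595 and 0.390% in homozygotes. The groups overlapped, with means of 0.719 ± 0.222, 0.592 ± 0.191 and 0.465 ± 0.113% (SD, n = 3 each). As a share of the authors' TPM, homozygous rats (0.139, 0.166 and 0.139%) all lay below wild types (0.263, 0.406 and 0.255%, exact permutation p = 0.1). In share of counts, homozygous rats were 0.255 percentage points below wild type (exact two-sided permutation p = 0.2). Heterozygous rats were 0.127 below wild type (exact permutation p = 0.5), and homozygous rats 0.127 below heterozygous rats (exact permutation p = 0.4). None of these differences in share of counts was past the threshold, with 0.1 the smallest possible p. Without wild-type rat 2 the first difference was -0.148 and the second -0.0209. Without heterozygous rat 3 the second was -0.0286, without heterozygous rat 1 it was -0.219 and without wild-type rat 3 it was -0.242. The third was -0.0355 without heterozygous rat 1, -0.226 without heterozygous rat 3 and -0.192 without homozygous rat 2.

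**Figure D3:**
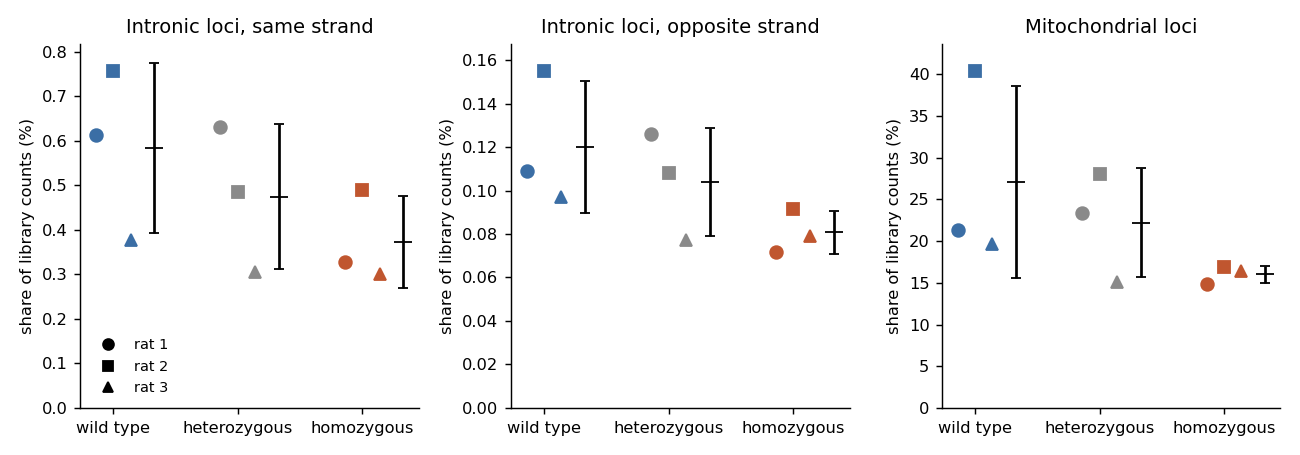
Share of all library counts in percent (y axis) on same-strand intronic loci, opposite-strand intronic loci and mitochondrial loci in each rat; symbols are rats 1 to 3 and bars are mean ± SD (n = 3). Wild-type rat 2 is the highest library in all panels, with 40.4% mitochondrial counts, and the genotypes overlap in the same-strand panel. In the opposite-strand and mitochondrial panels every homozygous rat lies below every wild type.

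The same-strand share averaged 0.583 ± 0.191% (wild type), 0.474 ± 0.163% (heterozygous) and 0.373 ± 0.103% (homozygous). For opposite-strand loci these means were 0.120 ± 0.0304, 0.104 ± 0.0247 and 0.0808 ± 0.00987%, and every homozygous rat lay below every wild type (exact permutation p = 0.1). Intronic counts came to 24.3 ± 10.1% of the counts of their hosts among wild types, to 20.5 ± 3.81% among heterozygotes and to 18.2 ± 2.99% among homozygotes. Wild-type rats alone ran from 13.8% in rat 3 to 33.9% in rat 2. Mitochondrial loci took 21.3, 40.4 and 19.6% of all counts in wild types and 23.4, 28.1 and 15.1% in heterozygotes. Homozygous rats, at 14.8, 16.9 and 16.4%, all lay below every wild type (exact permutation p = 0.1).

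The same libraries were extreme in most loci. Wild-type rat 2 was the highest of the 9 libraries in 692 of 1228 loci (56.4%), wild-type rat 1 in 248 and heterozygous rat 1 in 105. Wild-type rat 3 was the lowest in 458 (37.3%) and homozygous rat 3 in 253. Relative to its mean over libraries, the median locus was 0.46 higher in wild-type rat 2 and fell by 0.32 in wild-type rat 3 on the log2 scale, while the median of all loci tested moved by 0.06 and -0.03. The first principal component of the intronic loci held 60.5% of their variance, against 46.3% over all loci tested.

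Other features of the libraries moved with the intronic share, and their part in it was not tested. Of 15 measures compared over the 9 libraries, with adjustment over the 15, the mitochondrial share rose with it (Pearson r = 0.837, exact permutation p = 0.004, adjusted 0.0146; Spearman rho = 0.867, adjusted p = 0.0225; r = 0.887 without the 2 most extreme libraries). Mean marker levels fell with it for astrocytes (r = -0.921, rho = -0.85, adjusted exact permutation p = 0.005 and 0.0228) and endothelium (r = -0.881, rho = -0.917, adjusted p = 0.0026 and 0.0152). Neuron markers did so too (r = -0.871, rho = -0.8, adjusted exact permutation p = 0.0057 and 0.0415). Without the 2 most extreme libraries these 3 values of r were -0.851, -0.896 and -0.873. Microglia (r = -0.836) and oligodendrocytes (r = -0.822, -0.551 without the 2 most extreme libraries) also passed by r and by rho. Cerebellar markers (r = -0.742, -0.903 without the 2 most extreme libraries) passed by r but not by rho (adjusted exact permutation p = 0.0491 and 0.163). So did hypothalamic markers (r = -0.714, adjusted exact permutation p = 0.0466 and 0.249), where r was -0.133 without the 2 most extreme libraries and the relation rested on those. Library total (r = -0.161), choroid plexus (r = 0.0615) and blood markers (r = 0.146) did not pass. Marker levels were on TMM-scaled library sizes, while the intronic share was of library totals. The TMM factors ran from 0.8134 in heterozygous rat 3 to 1.184 in wild-type rat 3. Whether the marker relations hold with both on one scale was not tested, so their p-values carry that doubt.

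All 10 neuron markers were found, with summed levels of 1550 to 2470 CPM in wild types, 1890 to 2280 in heterozygotes and 2200 to 2400 in homozygotes, and none was at 0 throughout. The 9 oligodendrocyte markers summed to 2750 to 5800, 4620 to 5160 and 4200 to 6020 CPM, 7 of 8 astrocyte markers to 1230 to 2110, 1580 to 1900 and 1650 to 2160. The 11 cerebellar markers summed to between 74.8 and 777 CPM in wild-type and between 72.6 and 613 in homozygous rats, a wide spread within each genotype. In whole tissue, fewer cells of a type and less RNA per cell cannot be told apart. The host loci moved the same way as the neuron, astrocyte and oligodendrocyte markers in wild-type rats 2 and 3. Their median was -0.145 and 0.109 relative to the mean over libraries on the log2 scale. Whether the markers followed a shift of annotated loci at large was not tested.

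No intronic locus passed the adjusted threshold of 0.05 between genotypes (edgeR quasi-likelihood test, Benjamini-Hochberg over all 39057 loci tested). Among all loci tested, 0% passed in homozygous against wild type, 0.00768% in heterozygous against wild type and 0.00256% in homozygous against heterozygous rats. The smallest adjusted p of an intronic locus was 0.544 in homozygous against wild type. All 1228 loci were tested. DESeq2 and limma-voom also made 0 calls among them.

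At an unadjusted p under 0.05, 92 of 1228 loci (7.49%) differed between homozygous and wild-type rats, 8 of them higher and 84 lower, against 9.13% of all loci tested (4.88% higher and 4.25% lower). DESeq2 gave 87 and limma-voom 52. Heterozygous against wild type gave 47 loci, 1 higher and 46 lower, against 3.73% of all loci (1.37% higher and 2.35% lower). DESeq2 gave 45 and limma-voom 28. Homozygous against heterozygous rats gave 10, 3 higher and 7 lower, against 1.71% of all loci (0.512% higher and 1.2% lower). DESeq2 gave 10 and limma-voom 8. The shares of all intronic loci (7.49, 3.83 and 0.814%) were below that of all loci in 2 comparisons and close to it in the other, with most of them on the lower side. The strands differed in this. Of the opposite-strand loci 12.8% passed in homozygous and 9.76% in heterozygous against wild type, 11.4% and 9.43% on the lower side. Of the same-strand loci 5.48% and 1.71% passed in either direction, below the shares of all loci. On the lower side same-strand loci had 5.14% and 1.71%, against 4.25% and 2.35% of all loci. In homozygous against heterozygous rats the 2 classes had 0.673% and 0.799%. No test was made between the strands.

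These counts rested on single libraries. The 92 loci for homozygous against wild type became 24 on leaving out wild-type rat 2, 533 on leaving out wild-type rat 3, and 32 and 42 on leaving out homozygous rats 1 and 3. For heterozygous against wild type it was 17 without wild-type rat 2, 16 and 17 without heterozygous rats 2 and 3, 124 without heterozygous rat 1 and 314 without wild-type rat 3. For homozygous against heterozygous rats it was 5 without homozygous rat 1, 22 without homozygous rat 2, and 20 and 24 without wild-type rats 2 and 3, which belong to neither group but enter the same fit.

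The fitted changes of intronic loci leaned to lower levels as a body. In homozygous against wild type the median log2 fold change was -0.35, and 1069 of 1228 loci (87.1%) had a value below 0, against a median of -0.07 and 55.7% over all loci tested. It was -0.20 (79.1% below 0) in heterozygous against wild type and -0.12 (75.2%) in homozygous against heterozygous rats, where all loci had medians of -0.04 and 0. Both comparisons with wild type share the wild-type libraries. The host loci of the same introns leaned the other way: 694 of them had medians of 0.05, 0.01 and 0.06. All 16576 tested loci with a gene symbol had medians of 0.14, 0.07 and 0.07, so this lean was not particular to the hosts. As a share of all counts the hosts averaged less in homozygotes (2.53 ± 0.191%) than in wild types (3.07 ± 0.426%, exact permutation p = 0.2). Intergenic unannotated loci at the same CPM minimum (4942 tested) had medians of -0.36, -0.23 and -0.11, close to the intronic ones, and unannotated loci antisense to exons (596) had -0.17, -0.13 and -0.03. Same-strand and opposite-strand intronic loci had like medians, -0.36 and -0.34 in homozygous against wild type.

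The size of this lean also rested on wild-type rats 2 and 3. The homozygous against wild-type median was -0.14 without the former and -0.56 without the latter. For heterozygous against wild type it was -0.02 without wild-type rat 2, -0.12 without wild-type rat 1, -0.12 without heterozygous rat 3, -0.33 without heterozygous rat 1 and -0.41 without wild-type rat 3. For homozygous against heterozygous rats it was 0.01 without heterozygous rat 1, -0.03 without homozygous rat 3, -0.21 without heterozygous rat 3 and -0.26 without homozygous rat 2.

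**Figure D4:**
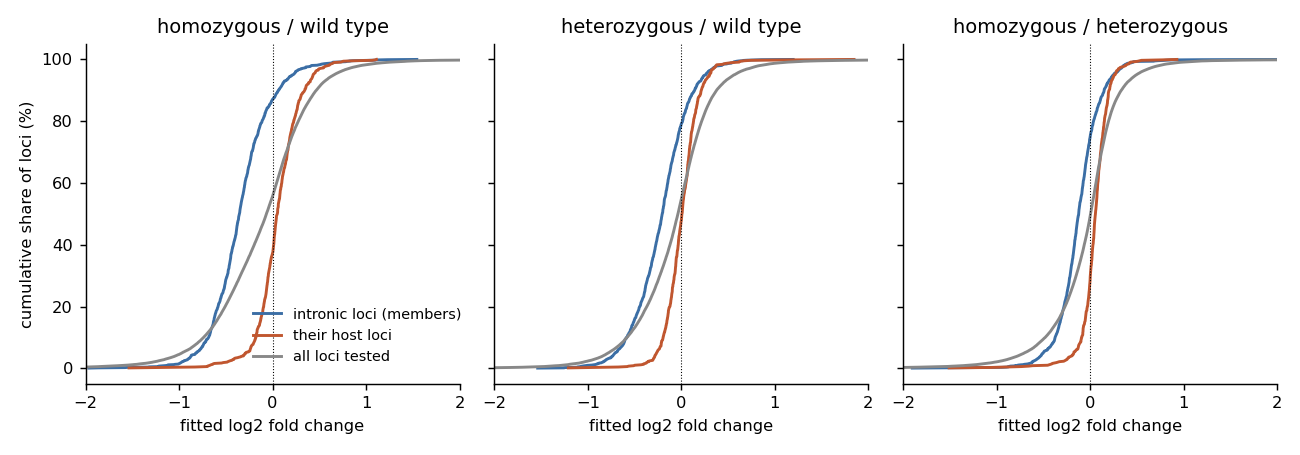
Cumulative share of loci in percent (y axis) by fitted log2 fold change (x axis) for the 1228 intronic loci, their host loci and all loci tested, in 3 comparisons. In homozygous against wild type the intronic curve lies to the left, with 87.1% of loci below 0 and a median of -0.35, and the host curve lies to the right of 0 at its median of 0.05.

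Set against its own host, an intronic locus usually had the lower fold change of the pair. Among 1125 loci with a tested host, the log2 fold change of the locus was below that of the host in 1010 (89.8%) for homozygous against wild type, with a median difference of -0.38. It was below in 893 (79.4%, median -0.20) for heterozygous against wild type and in 904 (80.4%, median -0.18) for homozygous against heterozygous rats. Loci share hosts and libraries, and no test was made over them. Intronic and host loci already differ in their medians, and pairs with the hosts of other loci were not compared. These shares therefore cannot show a relation with the own host in particular.

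The 8 loci of smallest p in homozygous against wild type were all under 8 CPM, and all had an edgeR adjusted p of 0.544. MSTRG.59431, a single exon of 287 bp opposite to Chia, the acidic chitinase gene (chr2:208788142-208788428), was at 2.98, 2.96 and 2.35 CPM in wild types, 1.47, 1.87 and 1.44 in heterozygotes, and 0.661, 1.79 and 1.25 in homozygotes. Both mutant groups lay below every wild type, and the log2 fold change in homozygous rats was -1.12 ± 0.32 (SE). MSTRG.60455, a single exon of 563 bp opposite to Tbck (chr2:237881933-237882495), was at 8.46, 15.1 and 7.42 CPM in wild types, 7.18, 5.11 and 6.39 in heterozygotes, and 5.24, 5.90 and 5.69 in homozygotes. Here too no mutant reached a wild type, with a log2 fold change of -0.88 ± 0.26. MSTRG.29084, on the host strand in the first intron of Mtf2, a Polycomb-associated gene (chr14:2687640-2692340), was at 2.37, 2.78 and 2.25 CPM in wild types, 1.99, 1.37 and 1.26 in heterozygotes, and 1.23, 1.49 and 1.28 in homozygotes. Again the mutants lay below the wild types.

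The others of the 8 were MSTRG.47023 in AC107505.1 (log2 fold change -1.58), MSTRG.7571 opposite to Fchsd2 (-1.17), MSTRG.79583 in AABR07047054.2 (-0.98), MSTRG.87293 in Ncoa1, a nuclear receptor coactivator gene (-1.33), and MSTRG.3806 in Cyp2b12, a cytochrome P450 gene (1.23). Wild-type rat 2 alone stood high in MSTRG.47023, at 4.38 CPM against 1.48 and 1.32 in the other wild types. MSTRG.3806 was the only one of the 8 with a higher value in homozygous rats, at 3.88, 2.07 and 1.65 CPM against 0.994, 0.986 and 1.20 in wild-type rats.

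In heterozygous against wild type the 4 of smallest p were MSTRG.91074 opposite to Ptpn21 (log2 fold change -1.07), MSTRG.39135 opposite to Cfap97 (-1.54), MSTRG.47930 opposite to Atp9b (-0.88) and MSTRG.69275 in Hao1 (-1.10), all with an edgeR adjusted p of 0.981. In homozygous against heterozygous rats they were MSTRG.8482 opposite to Acsm3 (-1.90), MSTRG.57197 in Veph1 (-0.87), MSTRG.33433 in Zfp385d (0.72) and MSTRG.88396 in Cog5 (-0.77), all with an adjusted p of 1. In 3 of the first 4 every heterozygous rat lay below every wild type, and MSTRG.39135 overlapped, with 1.23 CPM in heterozygous rat 1 and 1.20 in wild-type rat 3.

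Levels in homozygous rats were all below those in wild types for 68 loci (5.54%) and all above for 6 (0.489%), against 6.09% and 7.28% of all loci tested. For heterozygous against wild type the numbers were 25 and 6, against 3.8% and 2.69%. For homozygous against heterozygous rats 42 were below and 5 above, against 4.12% and 4.71%. Over both strands these percentages were smaller than those of all loci tested. Opposite-strand loci alone had 9.09% below in homozygous and 4.38% below in heterozygous against wild type, more than all loci tested, while same-strand loci had 4.22% and 1.26%. No test was made of these differences.

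No intronic locus was absent from a genotype. None of the 1228 had 0 counts in all 3 rats of a group, and over all loci tested 0.0256% did in wild types, 0.0282% in heterozygotes and 0.0358% in homozygotes. At least 1 count in all 9 rats was found for 1221 (99.4%), against 96% of all loci tested. The CPM minimum makes this likely, since the median locus had 89 counts in a library.

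The 7 remaining loci were at 0 in 1 or 2 rats. They are named here because they are few, after their values were seen. MSTRG.77338 in March8, a ubiquitin ligase gene, varied most, with 219, 0 and 458 counts in wild types, 323, 87 and 0 in heterozygotes, and 713, 154 and 76 in homozygotes. The zeros stood beside high counts in rats of the same genotype. Expected counts are estimates that divide reads between transcripts, so a listed 0 need not mean that no read lay there. MSTRG.30304 in Corin, MSTRG.8482 in Acsm3 and MSTRG.30957 in Stim2, a calcium sensor gene, were at 0 in homozygous rat 1, the library of lowest total. MSTRG.74135 in Dgki was at 0 in homozygous rat 3, MSTRG.63252 in Ros1 in wild-type rat 1 and homozygous rat 3, and MSTRG.68759 in Fam227b in heterozygous rat 2.

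Whether intronic loci followed their hosts over the 9 libraries depended on the scaling. On log2(CPM + 0.5) with library totals, the median Pearson r between a locus and its host was 0.439 over 1125 loci (0.477 on the same and 0.293 on the opposite strand), and 87.4% of values were positive. With TMM-scaled totals the median was -0.069, and 46.3% were positive. What held on both scales was the rank of the own host. With library totals the median r of a locus with the hosts of other loci was 0.282, and the own host stood at a median percentile of 67.6 among them for same-strand and 52.2 for opposite-strand loci. With TMM the median r with other hosts was -0.328 and the percentiles were 69.4 and 54.8. A percentile of 50 is the midpoint of the hosts.

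Exact permutation tests over the pairings of libraries, adjusted over the 2898 intronic loci with a tested host, passed for 100 of the 1125 loci, all with positive r and 97 of them on the same strand, against 4.45% of the 2898. With TMM scaling 69 passed, 60 of them positive, against 2.73% of the 2898, and 55 passed on both scales. After centring each genotype on its mean the median r was 0.307.

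Intronic loci of the same host had higher r with each other than with the host. The median r was 0.916 for 2 intronic loci of 1 host and 0.740 for loci of different hosts with library totals, and 0.874 and 0.606 with TMM.

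The r with the host was higher where the host locus itself held a long isoform. Sorted by the longest isoform of the host locus, the same-strand loci had a median r of 0.309 in the shortest of 4 classes (up to 4.91 kb, 170 loci), 0.364 in the next, 0.516 in the third and 0.703 in the longest (14.9 to 81.4 kb, 251 loci). With TMM the medians were -0.213, -0.193, -0.040 and 0.420. The class of longest isoforms held 63 of the 97 same-strand loci past the test. Where the host locus held only the reference transcript (36 same-strand loci), the median r was 0.198. How much intron sequence the long host isoforms hold was not tested.

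**Figure D5:**
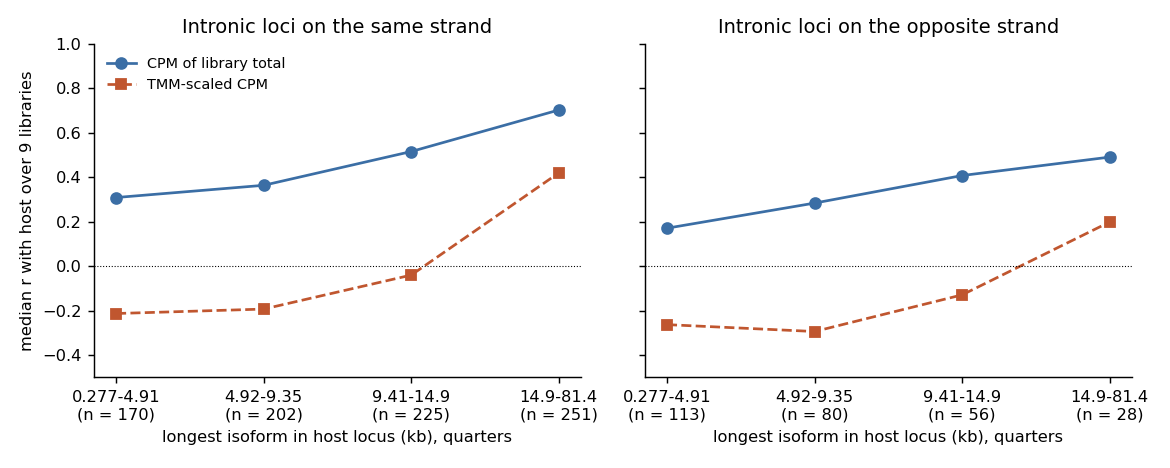
Median Pearson r between an intronic locus and its host over 9 libraries (y axis), by class of the longest isoform length in the host locus in kb (x axis), for same-strand and opposite-strand loci, with CPM of the library total and with TMM-scaled CPM. Same-strand medians go from 0.309 to 0.703 with library totals and from -0.213 to 0.420 with TMM, so the sign in the 3 shorter classes depends on the scaling.

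The 4 loci of highest r held their value under both scalings. MSTRG.47116 in the second intron of Chsy3, a chondroitin sulfate synthase gene (chr18:54282889-54355736, 38149 bp), had r = 0.991 with its host (rho = 0.983, exact permutation p = 5.51e-06, adjusted 0.00799; adjusted p of rho 0.0205), 0.995 without the 2 most extreme libraries and 0.991 with TMM. It was at 38.6, 54.1 and 15.0 CPM in wild types, 34.9, 27.5 and 21.0 in heterozygotes, and 26.3, 36.6 and 20.4 in homozygotes. The SD within wild type, 19.7 CPM, exceeded the gap between the group means of 35.9, 27.8 and 27.8 CPM. The others were MSTRG.14272 in Tenm2, a teneurin adhesion gene (0.987, and 0.971 with TMM), MSTRG.76127 in Lrrtm4 (0.981 and 0.973) and MSTRG.69808 in Pak7, a kinase gene (0.980 and 0.968). Their host loci held isoforms of 26.5, 53.7, 11.3 and 15.0 kb in the order given, and the host TPM was 1.39, 6.28, 0.422 and 0.224.

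The range of r within a host varied between hosts. All 12 loci in Lrrtm4 had r between 0.904 and 0.981, all 10 in Nlgn1 between 0.860 and 0.934, and the 14 in Il1rapl1 between 0.481 and 0.963, with a median of 0.933. The 10 in Anks1b had r between -0.088 and 0.478, and the 16 in Pde4d between 0.265 and 0.596. Loci within a host are not replicates, and these ranges are on library totals.

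Among the loci of lowest r were MSTRG.14959 opposite to Glra1, a glycine receptor gene (r = -0.697), MSTRG.94293 in Lin7a (-0.664) and MSTRG.39194 opposite to Fat1 (-0.638). With TMM these were -0.856, -0.816 and -0.693. None passed the adjusted exact permutation test on library totals, where their adjusted p ran from 0.234 for Glra1 to 0.304 for Fat1.

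Hosts were also grouped by role, with 8 lists of genes. The longest list, 82 synaptic and axonal adhesion genes, held 108 loci in 27 hosts, which carried 22.1% of the summed CPM of all intronic loci. Their median log2 fold change in homozygous against wild type was -0.44, with 104 of 108 (96.3%) below 0, 8 at an unadjusted p under 0.05 and none past the adjusted threshold. Over all intronic loci the median was -0.35, with 87.1% below 0 and 7.49% at an unadjusted p under 0.05. Over all loci tested these figures were -0.07, 55.7% and 9.13%. In heterozygous against wild type the median was -0.37, with 0 at an unadjusted p under 0.05. The loci in Nrxn3 described above belonged to this group. MSTRG.76111, the most abundant in Lrrtm4 (chr4:110732736-110793553), was at 59.6, 90.4 and 27.4 CPM in wild types, 61, 34.2 and 30 in heterozygotes, and 38, 40.3 and 32.2 in homozygotes. Again every mutant lay within the wild-type range.

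The 61 ion channel genes held 32 loci in 12 hosts, with a median of -0.27, 28 below 0 and 1 at an unadjusted p under 0.05, where 9.13% of all loci passed. The leading loci were MSTRG.33160 and MSTRG.33162, in the first and second introns of Kcnma1, the gene for the large-conductance calcium-activated potassium channel. MSTRG.33160 (chr15:428022-463574) was at 42.8, 53.4 and 16.5 CPM in wild-type and 19.7, 37.1 and 16.7 in homozygous rats, which overlapped. MSTRG.33162 averaged 25.7 ± 13.7 CPM in wild-type and 15.3 ± 5.21 in homozygotes (SD, n = 3 each).

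The 39 glutamate and GABA receptor genes held 16 loci in 10 hosts. All 16 were below 0 in homozygous against wild type (median -0.46), with 0 at an unadjusted p under 0.05. All 16 were also below 0 in heterozygous against wild type (median -0.53), with 3 at an unadjusted p under 0.05. These 2 comparisons share their controls. Over all intronic loci 87.1% and 79.1% were below 0, and over all loci tested 55.7% and 54.9%. Of all loci tested, 9.13% and 3.73% were at an unadjusted p under 0.05 in these comparisons. In homozygous against heterozygous rats the median of the 16 was 0.02, with 9 above 0, where all intronic loci had a median of -0.12. Loci within a host are not replicates. MSTRG.72780 in Grm3, a metabotropic glutamate receptor gene (chr4:21378631-21409443), was at 31.3, 42.6 and 17.2 CPM in wild types, 27.5, 17.6 and 15.9 in heterozygotes, and 18.2, 22.4 and 17.3 in homozygotes. Every mutant lay within or just below the wild-type range. MSTRG.63960 in Grik2, a kainate receptor gene (chr20:53948454-53959016), averaged 19.2 ± 5.29, 12.4 ± 3.72 and 14.2 ± 1.64 CPM.

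Second messenger and kinase genes held 43 loci in 14 hosts (median -0.34), led by MSTRG.21879 in Fgf12 and MSTRG.53104 in Pde4d. RNA-binding genes held 8 in 6 hosts (median -0.33), led by MSTRG.56934 in Mbnl1 and MSTRG.97107 in Rbfox2, both splicing regulators. Hosts of small nucleolar RNAs held 2, MSTRG.106073 in Rnf149 and MSTRG.48457 opposite to Cnot1. The astrocyte list held 1, MSTRG.29780 opposite to Slc4a4, a bicarbonate transporter gene, at 2.07 ± 0.817 CPM in wild-type and 2.06 ± 0.239 in homozygous rats. The oligodendrocyte list held none, although 9 of 9 oligodendrocyte markers were found in the libraries. The remaining 1018 loci lay in hosts on none of the lists.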

How the data were processed

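The members and lists were chosen with earlier results of these data known. Per the labels' protocols, total RNA was depleted of ribosomal RNA and made into stranded libraries. Per the submitters' processing notes, cutadapt, HISAT2, StringTie, RSEM and the build rn6 were used, and no versions are given. The files the authors deposited hold expected counts (RSEM estimates that need not be whole) and TPM per locus, with an assembly with class codes. Expected counts were rounded. Of 114601 loci, 39057 passed filterByExpr and were fitted over all 9 libraries by genotype with edgeR 4.0.16 (quasi-likelihood, TMM, Benjamini-Hochberg, R 4.3.3). The common biological coefficient of variation was 0.277. Hosts were matched by the reference transcript named for the locus (1122) or by gene name (51). Correlations used a pseudocount of 0.5. The named loci were the 8 of highest CPM, the 8 or 4 of smallest p in each comparison, the 4 of highest and lowest r with the host, the 5 hosts with most loci, the 3 longest and 3 with most exons, and 2 per host list. A few loci that this rule names are not reported here.

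Counts were simulated for homozygous against wild type (37409 loci), with changed loci drawn from all loci past the filter, not from intronic loci alone. In these counts edgeR recovered 19.4% of loci changed 2-fold, 59.7% changed 4-fold and 92.4% changed 8-fold, with 8 false calls. Over that mix a change of 2-fold in a single locus was mostly not detectable. Recovery of intronic loci alone was not examined. Alternatives covered scaling, filters, DESeq2 1.42.0, limma-voom (limma 3.58.1), the legacy quasi-likelihood method, the replicate number as a block, each library left out, the CPM minimum and the pseudocount.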

Additional observations from a re-analysis of the deposited data

How the results depend on the processing

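Calls stayed at 0 in all 3 comparisons under every alternative run, except that at a minimum of 0.5 CPM 1 locus was called in heterozygous against wild type. This was MSTRG.93889 in AABR07056680.1, at 63, 93 and 54 counts in heterozygous and 0 in all wild-type and homozygous rats (edgeR adjusted p = 0.0352), the 1 locus absent from a genotype at that minimum and absent from 2, so that the number of absences rose from 0 to 2. It was named after its values were seen.

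Counts of loci at an unadjusted p under 0.05 moved most. A minimum of 2 or 0.5 CPM also changes the number of loci, from 1228 to 702 or 1953, so its counts are not of one set. For homozygous against wild type (92) the count was 52 with limma-voom, 150 with library sizes outside mitochondrial and the 10 most abundant loci, 50 at a minimum of 2 CPM and 143 at 0.5 CPM, and 24 to 533 with 1 library left out. For heterozygous against wild type (47) it was 28 with limma-voom, 29 and 85 at 2 and 0.5 CPM, and 16 to 314 with 1 library left out. For homozygous against heterozygous rats (10) it was 21 without a filter, 16 with the replicate block, 2 and 25 at 2 and 0.5 CPM, and 5 to 24 with 1 library left out. The cause was not tested. With library sizes outside mitochondrial and the 10 most abundant loci, the median over all loci tested for homozygous against wild type moved from -0.07 to -0.20 and that of the intronic loci from -0.35 to -0.51. Median log2 fold changes with 1 library left out ran from -0.56 to -0.14, from -0.41 to -0.02 and from -0.26 to 0.01, and differences in the share of counts from -0.370 to -0.148, from -0.242 to -0.0209 and from -0.226 to -0.0355 percentage points.

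The median r with the host (0.439) was -0.069 with TMM, 0.610 with the authors' TPM and 0.307 with genotypes centred, and 0.361 to 0.578 with 1 library left out. Loci past its adjusted threshold numbered 100, and 69 with TMM. Of 624 values for the named loci in homozygous against wild type under other settings, 35 in 12 loci changed sign. The median locus had 89 counts per library, beside a biological coefficient of variation of 0.277, and which of them limits a single locus was not tested.

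Deviations from the genotype mean correlated from -0.176 to 0.401 between rats of the same replicate number, and from -0.513 to 0.387 between rats of different numbers. Same-number pairs were over 0.1 in 5 of 9, and 4 of 9 libraries correlated best with their own number. With 3 rats per genotype these values cannot settle whether the numbers pair the rats. With the number as a block, counts at an unadjusted p under 0.05 were 128, 53 and 16, with 0 calls.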
